A study of Mus musculus with 2 samples.

Results

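Rbfox1, Rbfox2, Rbfox3, Nova1, Nova2, Elavl2, Elavl3, Elavl4, Celf4 and Ptbp2 encode RNA-binding proteins that shape the transcriptome of neurons, and their loci were examined in maps of open chromatin from the mouse frontal cortex. The genes were chosen by symbol in the GENCODE annotation of mm10, and all 10 were found among its 21938 protein-coding genes. A promoter peak was an open region overlapping the 1 kb on either side of an annotated transcription start site (TSS), and a locus was the gene body with 10 kb on either side. Such proteins act on RNA in a position-dependent way, so that binding before or after an alternative exon can favour or block its use, and several of them also bind the 3′ ends of messages to control stability and translation. The families differ in what they bind: the Rbfox proteins read the RNA word UGCAUG, the Nova proteins clusters of YCAY, and the Elavl (Hu), Celf and Ptbp proteins uridine-rich, uridine- and guanosine-rich and pyrimidine-rich stretches.

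The maps come from DNase-seq, in which DNase I cuts DNA that is not wrapped in nucleosomes and the cut ends are sequenced. Frontal cortex was taken from female mice of strain B6CASTF1/J, the F1 cross of C57BL/6J with the wild-derived CAST/EiJ strain, at 25 days of age, and the labels name no treatment. There was 1 group of 2 libraries, replicate 1 and replicate 2. They are separate biological replicates in the labels but carry a single donor identifier, so the spread between them may be technical, and no test between conditions was possible.

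The authors called peaks in each library separately, 85603 in replicate 1 and 87847 in replicate 2, and gave each a read-depth normalized signal, here called its value, on a scale the sources do not define. Median values were 0.627 and 0.679. They also listed footprints, short stretches within open chromatin that are cut less than their surroundings, 214072 and 189951 in number and 9 bp wide at the median. As a check of the tissue, the neuronal marker genes Snap25, Syt1, Slc17a7, Neurod2, Tbr1, Gad1 and Gad2 were each open at a promoter in both libraries. Of the oligodendrocyte genes Mbp was, while Mog and Mag had no promoter peak in either library. Astrocyte markers were open in both libraries in 2 of 4 cases, and those of microglia and of endothelium in 1 of 4 each, with no promoter peak in either library at P2ry12, Csf1r, Tmem119, Pecam1 and Cdh5. The tissue is a mixture of cell types, so that a weak peak present in many cells and a strong one in few cannot be told apart.

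Shown first, because the values below turn on them, are the strongest open promoters of the 4 genes that led by mean value. With them are distal open regions, more than 1 kb from any TSS of a protein-coding gene. These are the strongest of each of the 3 genes that led in the same way. Celf4 was left out of both, and each gene appears at most once in a set. Each line gives DNA shared by the peaks of both libraries, 5′ to 3′ on the strand of the gene, from the C57BL/6J reference (mm10). Annotated untranslated bases were left out, 56 at Elavl2 and 24 at Rbfox2, so the base counts and shares for these genes describe the rest. Capitals mark bases that lay inside a footprint in both libraries. The CAST/EiJ allele, which these mice also carry, was not read. The promoter of Elavl2 lies at chr4:91376497-91376640, directly upstream of a TSS 24.3 kb downstream of the annotated 5′ end. That of Nova2 lies at chr7:18925261-18925460, that of Nova1 at chr12:46819421-46819660 and that of Rbfox2 at chr15:77307005-77307280, each upstream of the 5′ end of its gene.
Elavl2 promoter: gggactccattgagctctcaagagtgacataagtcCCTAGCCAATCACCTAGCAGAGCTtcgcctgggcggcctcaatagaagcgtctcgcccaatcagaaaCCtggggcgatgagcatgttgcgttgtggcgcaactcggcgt
Nova2 promoter: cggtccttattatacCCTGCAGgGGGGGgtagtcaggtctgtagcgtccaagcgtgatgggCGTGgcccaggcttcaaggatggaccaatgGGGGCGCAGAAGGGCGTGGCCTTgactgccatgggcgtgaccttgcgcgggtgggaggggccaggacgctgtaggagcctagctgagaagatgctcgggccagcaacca
Nova1 promoter: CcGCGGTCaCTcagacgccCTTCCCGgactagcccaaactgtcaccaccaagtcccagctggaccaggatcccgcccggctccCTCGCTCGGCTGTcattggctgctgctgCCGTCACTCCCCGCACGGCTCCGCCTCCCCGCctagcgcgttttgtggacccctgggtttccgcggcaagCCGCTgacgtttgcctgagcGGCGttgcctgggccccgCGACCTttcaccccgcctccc
Rbfox2 promoter: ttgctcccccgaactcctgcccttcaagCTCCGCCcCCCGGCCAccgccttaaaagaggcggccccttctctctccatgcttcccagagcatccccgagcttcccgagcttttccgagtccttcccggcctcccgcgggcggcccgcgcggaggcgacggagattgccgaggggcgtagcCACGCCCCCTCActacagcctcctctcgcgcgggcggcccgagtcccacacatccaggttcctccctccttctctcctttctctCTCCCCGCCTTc
In the Elavl2 promoter a CCAAT box at positions 41 to 45, counted from 1 at the first base printed, lay wholly inside the footprints of both libraries, while a further one at positions 92 to 96 was 60% covered in replicate 1 and not covered in replicate 2. In footprints of both libraries lay 76 of the 240 printed bases of Nova1, 39 of 200 of Nova2, 38 of 276 of Rbfox2 and 26 of 144 of Elavl2. The GC box GGGCGG, the letters read by SP and KLF factors, occurred 3 times in the Rbfox2 promoter. Its copy on the opposite strand at positions 31 to 36 was 100% inside a footprint in replicate 1 and 83.3% in replicate 2. The copy at positions 137 to 142 was 0% covered in both libraries. That at positions 212 to 217 was 0% covered in replicate 1 and 100% in replicate 2. By base composition these promoters were GC-rich, at 56.9% in Elavl2, 64.0% in Nova2, 69.6% in Nova1 and 68.5% in Rbfox2.

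The distal regions are an intron of Rbfox1 at chr16:6018761-6018940, 134 kb downstream of the 5′ end, an intron of Rbfox3 at chr11:118738981-118739180, 173 kb downstream, and DNA centred 2.84 kb upstream of Nova2 at chr7:18922941-18923180.
Rbfox1 intron: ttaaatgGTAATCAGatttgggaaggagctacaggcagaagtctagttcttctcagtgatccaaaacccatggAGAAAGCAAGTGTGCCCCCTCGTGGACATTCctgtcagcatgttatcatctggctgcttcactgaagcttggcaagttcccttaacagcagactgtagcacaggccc
Rbfox3 intron: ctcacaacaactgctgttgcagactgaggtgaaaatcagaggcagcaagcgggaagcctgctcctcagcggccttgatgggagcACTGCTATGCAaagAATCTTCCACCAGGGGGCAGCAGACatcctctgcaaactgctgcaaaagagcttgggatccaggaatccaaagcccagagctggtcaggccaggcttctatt
Nova2 upstream: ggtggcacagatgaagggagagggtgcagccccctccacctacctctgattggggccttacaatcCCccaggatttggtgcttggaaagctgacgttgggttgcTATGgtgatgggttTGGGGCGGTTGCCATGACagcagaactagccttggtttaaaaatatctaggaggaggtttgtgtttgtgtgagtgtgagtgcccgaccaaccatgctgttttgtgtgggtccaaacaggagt
Both intronic regions held the letters of the core of the CTCF motif, CNAGNNGGC, under a footprint of both libraries. These regions were picked for their values. Over all distal regions called in both libraries at the genes other than Celf4, the share with such a match was 5.80%, beside 10.2% over the genome. CTCF is the zinc finger protein at the base of many chromatin loops. In Rbfox1 the match was GCCCCCTCG at positions 87 to 95, read on the opposite strand, inside footprints of 31 bp in replicate 1 and 38 bp in replicate 2. In Rbfox3 it was CCAGGGGGC at positions 108 to 116, inside footprints of 27 bp and 44 bp. The region upstream of Nova2 differed: its footprint of 19 bp in replicate 1 and 18 bp in replicate 2 covered a GC box at positions 121 to 126 that shares its last base with GTTGCCATG at positions 126 to 134, a match to GTTGCNNNG, part of the motif of RFX factors. These matches describe letters and not bound proteins.

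Each of the 10 genes was open at a promoter in both libraries, beside 61.5% of all protein-coding genes by the same rule. A gene with more annotated TSS has more chances to meet this rule. The 10 genes had 85 distinct TSS, against 93513 for all 21938 protein-coding genes, so the shares are not on equal terms. With the annotated 5′ end as the only start, 7 of the 10 genes met it. The levels were moderate. Strongest promoter values, averaged over the libraries, had a median of 1.81 over the 10 genes, against 2.34 over the 13489 genes that met this rule, whose middle 50% ran from 1.28 to 3.65. Elavl2, Nova2 and Nova1 lay above that median and the other 7 genes below it. Of the 85 distinct annotated TSS of the 10 genes, 49 (57.6%) had a peak within 1 kb in both libraries, 9 in 1 library and 27 in neither, beside 50.8% of all TSS of protein-coding genes. Joining starts at most 1 kb apart gave 49 start clusters, of which 20 (40.8%) had a peak in both libraries, 5 in 1 and 24 (49.0%) in neither. Over the 48607 start clusters of all protein-coding genes, made in the same way, 32.9% had one in both and 62.5% in neither.

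**Figure D1:**
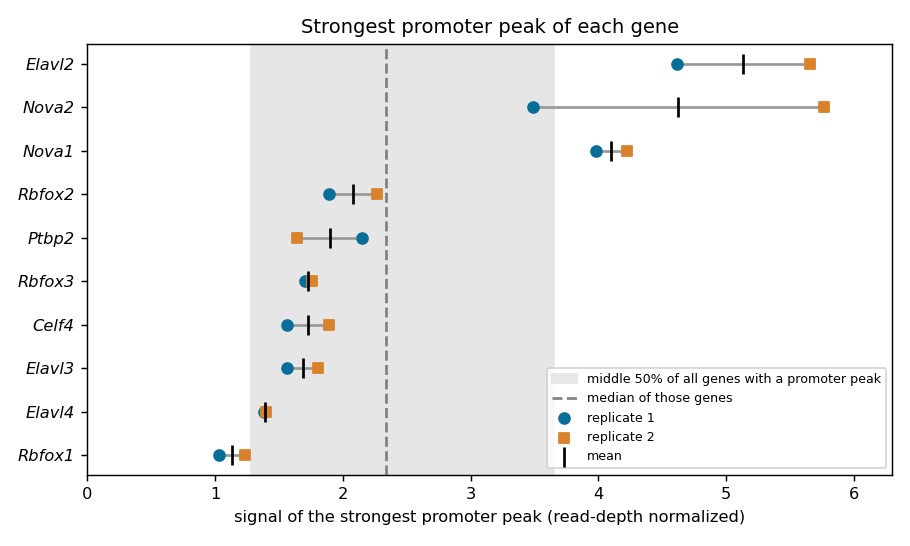
Signal of the strongest promoter peak (x axis, the authors' read-depth normalized signal) of each of the 10 genes (y axis), with replicate 1 as circles, replicate 2 as squares and the mean as a bar. The grey band is the middle 50% of all genes with a promoter peak (1.28 to 3.65) and the dashed line their median (2.34); Elavl2, Nova2 and Nova1 lie to the right of it and Rbfox1 at the far left.

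Rbfox1, Rbfox2 and Rbfox3 encode the Fox family. Rbfox1, linked in humans to epilepsy and autism, spans 1526 kb at chr16:5885355-7411526 on the plus strand (ENSMUSG00000008658.16), the longest locus of the group. Its strongest promoter value was 1.03 in replicate 1, at the start 464 kb downstream, and 1.23 in replicate 2, at the 5′ end (1.13 ± 0.141, SD, n = 2). The SD is therefore not the spread of a single promoter. Of genes with a promoter peak 21.1% were lower, so that the longest gene had the lowest promoter value of the 10. Of 7 start clusters 3 had a peak in both libraries: the 5′ end at 0.989 and 1.23, the start 464 kb downstream at 1.03 and 1.14, and the one 1308 kb downstream at 0.836 and 0.857. The means of the first 2 differed by less than the libraries did, and the third was lower than both in each library. The start at 1184 kb had a peak in replicate 2 only, at 0.737, and the other 3 had none.

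Most of the open chromatin of Rbfox1 lay in its introns. The locus held 53 peaks in replicate 1 and 58 in replicate 2, which merged into 70 regions, 40 of them called in both. Of these 70 regions 63 were more than 1 kb from any TSS of a protein-coding gene, and 61 of the 63 were intronic. The region whose sequence is printed above had values of 2.76 and 3.44 (3.10 ± 0.481, SD, n = 2), above 98.3% of distal regions called in both libraries. A region 46.6 kb from the 5′ end followed at 2.32 and 2.45, and one 595 kb from it at 1.92 and 1.70. All 3 exceeded the strongest promoter of the gene in both libraries.

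Rbfox2, the family member that is also used widely outside the nervous system, lies at chr15:77078990-77307004 on the minus strand (ENSMUSG00000033565.18). Its leading promoters overlapped in value: the 5′ end had values of 1.89 and 2.03, and the start 61.4 kb downstream 1.54 and 2.27. The gene's strongest promoter value, 2.08 ± 0.264 (SD, n = 2), therefore came from the 5′ end in replicate 1 and from the internal start in replicate 2. Which of them is stronger was not resolved by these libraries. A start cluster at 153 kb had 0.893 and 1.12, and 4 of the 7 clusters had no peak. Away from its starts Rbfox2 held few open regions, 8 in all and 2 in both libraries, the stronger an intronic one 49.5 kb from the 5′ end at 1.42 and 1.78.

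Rbfox3 encodes the antigen NeuN, the standard marker of mature neurons, and lies at chr11:118489762-118911597 on the minus strand (ENSMUSG00000025576.17). Its strongest promoter peak was not at the 5′ end but 404 kb downstream, with values of 1.70 and 1.76 (1.73 ± 0.0409, SD, n = 2; chr11:118507961-118508180). This region is intronic and lies 608 bp from the TSS of the transcript Rbfox3-210. It counts as a promoter peak because the window reached 1 kb, and a narrower window can leave it out. The strongest other promoter region called in both libraries had 0.588 and 0.685, 351 bp from the start 342 kb downstream. The annotated 5′ end had a peak in replicate 1 only, at 0.780, and the 3 TSS about 2.03 kb downstream likewise, at 0.898. In replicate 2 the 1 kb around each of these 4 TSS held no position at which the cut rate passed the authors' false discovery rate of 0.05. The next start, at 3.59 kb, had a peak in each library, at 0.655 and 1.31, but these were separate regions. Around its 5′ end the gene was therefore called open at different places in the libraries, and the nearest intronic region called in both was 5.73 kb downstream, at 1.20 and 1.38. The 5′ end is poor in CpG, with 7 in the 1 kb around it against a median of 73.5 over the 10 genes and 41 over all protein-coding genes.

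The Rbfox3 locus was dense in open chromatin, with 31 and 35 peaks and 78 and 66 footprints. Of 32 distal regions 19 were called in both libraries. The intronic region printed above had values of 2.47 and 2.60 (2.54 ± 0.0871, SD, n = 2), above the strongest promoter peak in both libraries. A neighbouring intronic region (chr11:118740081-118740280), at 1.67 and 1.68, and a region in an exon at the 3′ end of the gene (chr11:118490921-118491108), at 1.28 and 1.13, also had the CTCF core under footprints of both libraries. A region 118 kb from the 5′ end at 1.72 and 2.18 instead had the GC box and the EGR motif GCGTGGGCG under footprints of both. A region with 0.691 in replicate 2 only lay within 1 kb of a TSS of the neighbouring gene Engase and is not counted as distal.

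Nova1 and Nova2 encode the KH-domain splicing factors known as antigens in paraneoplastic neurological disease. Nova1, at chr12:46694517-46818929 on the minus strand (ENSMUSG00000021047.7), had peaks at its 5′ end alone. The strongest peak had values of 3.98 and 4.22 (4.10 ± 0.167, SD, n = 2), above 81.6% of genes with a promoter peak, and was followed by neighbours at 1.47 and 1.34 and at 0.752 and 0.765. These 3 regions, each called in both libraries, were all that the locus held. No peak lay at the starts 1.97 kb and 98.1 kb downstream, and no distal region was called across a gene of 124 kb. Its 5′ end had 129 CpG in 1 kb, the most of the group.

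Nova2, the paralogue that predominates in the cerebral cortex, is short, at chr7:18925888-18965319 on the plus strand (ENSMUSG00000030411.16), with a single annotated TSS. Its promoter had values of 3.49 and 5.76 (4.62 ± 1.61, SD, n = 2), the widest spread of the group, and a log2 ratio of replicate 1 to replicate 2 of -0.72 where the SD of that ratio over all regions called in both libraries was 0.39. Its place relative to Nova1 and Elavl2 is accordingly not resolved: in replicate 1 it was the lowest of the 3 and in replicate 2 the highest. Unlike Nova1, the gene had open chromatin around it, with 11 and 9 peaks in a locus of 59.4 kb. The region printed above had values of 1.75 and 2.18, and another centred 4.57 kb upstream 1.57 and 1.82, with a GC box under footprints of both libraries. A region in a coding exon 31.8 kb from the start was weaker at 0.949 and 0.759.

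**Figure D2:**
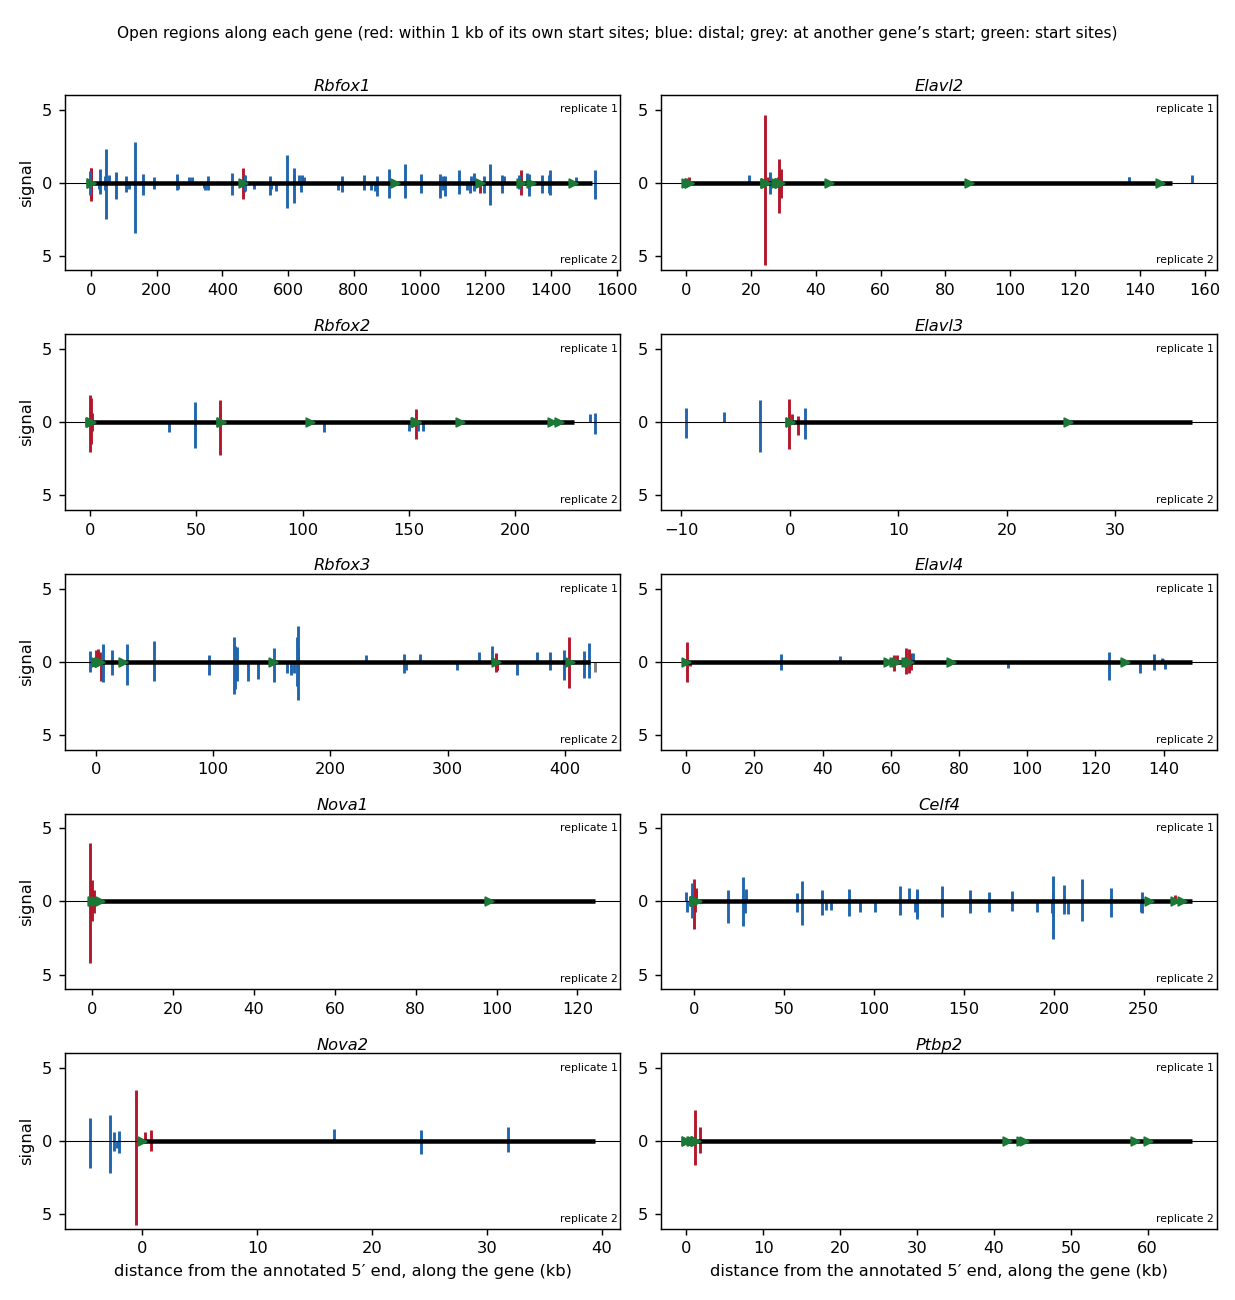
Peak signal (y axis) along each gene (x axis, kb from the annotated 5′ end in the direction of transcription), with replicate 1 drawn upwards and replicate 2 downwards, peaks within 1 kb of the gene's own TSS in red, distal peaks in blue, a peak at another gene's start in grey, TSS as green triangles and the gene body as a black bar. Nova1 and Ptbp2 show peaks near the 5′ end alone, Rbfox1, Rbfox3 and Celf4 show them throughout, and the tallest peak of Elavl2 stands at its internal starts.

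Elavl2, Elavl3 and Elavl4 encode HuB, HuC and HuD, which bind AU-rich and U-rich RNA, stabilise messages and regulate splicing in differentiating and mature neurons. Elavl2, at chr4:91250763-91400785 on the minus strand (ENSMUSG00000008489.18), had the strongest promoter of the 10 by mean value, but not at its 5′ end. The starts 24.3 kb downstream had values of 4.61 and 5.65 (5.13 ± 0.737, SD, n = 2), above 91.7% of genes with a promoter peak. A further cluster of starts at 27.8 kb had 1.65 and 2.07 and carried the CTCF core and the GC box under footprints of both libraries. The annotated 5′ end had a peak in replicate 1 only, at 0.367, and no position that passed the false discovery rate of 0.05 in replicate 2. The promoter with the highest mean value of the 10 genes was thus one that a count at annotated 5′ ends alone would miss.

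Elavl3, at chr9:22015005-22052023 on the minus strand (ENSMUSG00000003410.8), had its promoter peak at the 5′ end, with values of 1.57 and 1.80 (1.68 ± 0.169, SD, n = 2). A region centred 2.72 kb upstream (chr9:22054401-22055080) had 1.55 and 2.00 (1.78 ± 0.314, SD, n = 2) and differed from the promoter by less than the spread between libraries. Other shared regions lay 1.45 kb into the gene, at 0.978 and 1.12 with 8 footprints in each library, and 9.53 kb upstream, at 0.972 and 1.05. The start 25.6 kb downstream had no peak.

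Elavl4, at chr4:110203722-110351909 on the minus strand (ENSMUSG00000028546.17), had the strongest promoter value that was most even between libraries, with 1.38 and 1.40 at its 5′ end (1.39 ± 0.0103, SD, n = 2). Internal starts were open too. Those 64.4 kb downstream had values of 0.972 and 0.857, and those at 61.0 kb had 0.497 and 0.628, where the region called in both had 0.441 and 0.628. The order of these 3 clusters, with the 5′ end first, was the same in both libraries. Its 10 distal regions were all intronic, and 3 were called in both libraries, the strongest 124 kb from the 5′ end at 0.655 and 1.23.

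Celf4 encodes a member of the CUG-binding, Elav-like family that binds messages of synaptic proteins and whose loss causes seizures in mice. It lies at chr18:25477632-25754157 on the minus strand (ENSMUSG00000024268.16), and its sequence was not analysed here. The promoter at the 5′ end had values of 1.56 and 1.89 (1.72 ± 0.234, SD, n = 2). The start 1.47 kb downstream had 0.921 and 0.691, from separate regions, where the region called in both had 0.678 and 0.691. The region called in both lay closer to the starts at the 5′ end, 93 bp from the nearest of them. In replicate 2 it was the only peak within 1 kb of the downstream start, which counted as open there by that peak alone. That at 267 kb had a peak in replicate 1 only, at 0.469. Its locus of 297 kb held 30 and 35 peaks, or 10.1 and 11.8 per 100 kb. Of its 42 regions 35 were distal, 20 of these in both libraries, led by an intronic region 199 kb from the 5′ end at 1.77 and 2.58 (2.17 ± 0.570, SD, n = 2) and one at 27.2 kb at 1.70 and 1.70.

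Ptbp2, which encodes nPTB, the paralogue that takes over as Ptbp1 falls during neuronal differentiation and that holds back adult splice patterns, lies at chr3:119718742-119784466 on the minus strand (ENSMUSG00000028134.11). Its locus held the fewest peaks of the 10, with 2 in each library, both close to the 5′ end. The stronger, at chr3:119783181-119783400, had values of 2.15 and 1.64 (1.90 ± 0.355, SD, n = 2), the only promoter of the 10 that was stronger in replicate 1 by its main value. It lay within 1 kb of 6 TSS that are 0.662 to 1.23 kb downstream of the annotated 5′ end, and the weaker, 1.77 kb downstream, had 0.961 and 0.828. The 2 TSS at the 5′ end itself, which belong to transcripts not annotated as protein-coding, had no peak, although the 1 kb around them held 267 to 269 positions in replicate 1 and 204 to 206 in replicate 2 at a false discovery rate of at most 0.05. The 4 start clusters 41.7 kb and more downstream had none.

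The loci also differed in how densely they were filled with peaks. Per 100 kb of locus the median over the 10 genes was 6.68 peaks, against 5.49 over all protein-coding genes and 4.56 over the 6496 of them with a locus at least as long as the shortest of the 10. Since density falls with length over most of this range, each gene was set beside all genes with a locus from 0.5 to 2 times as long, and by mean density 8 of the 10 lay above the median of those genes. The genes of like length include ones without a promoter peak, whereas all 10 genes had one. The densities are thus not set against open genes alone, as the promoter values were. Celf4 had 11.0 ± 1.19 peaks per 100 kb (SD, n = 2) against 3.77, with 98.4% of 1642 genes of like length lower. Rbfox3 had 7.47 ± 0.640 against 3.42, with 93.6% lower, and Nova2 16.8 ± 2.38 against 6.10, with 93.5% lower. Rbfox1 followed at 3.59 ± 0.229 against 1.90 over 107 genes (87.9% lower), then Elavl4 at 7.73 ± 0.841 against 4.39 (84.1% lower) and Elavl3 at 12.3 ± 2.48 against 6.18 (83.3% lower).

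The other 4 genes were closer to, or below, genes of like length. Elavl2 had 8.23 peaks per 100 kb in replicate 1 and 3.53 in replicate 2, on either side of the median of 4.35, so its place was not resolved. Rbfox2, at 3.63 and 4.84 against 3.98, was likewise on both sides of it. Nova1 had 2.08 and 2.77 against 4.55, with 18.2% of genes of like length lower, and Ptbp2 2.33 in both libraries against 5.33, with 18.3% lower. Paralogues thus differed from each other: Nova2 was dense and Nova1 sparse in both libraries although Nova1 had a promoter of similar strength, and Rbfox3 was denser than Rbfox2 in both.

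**Figure D3:**
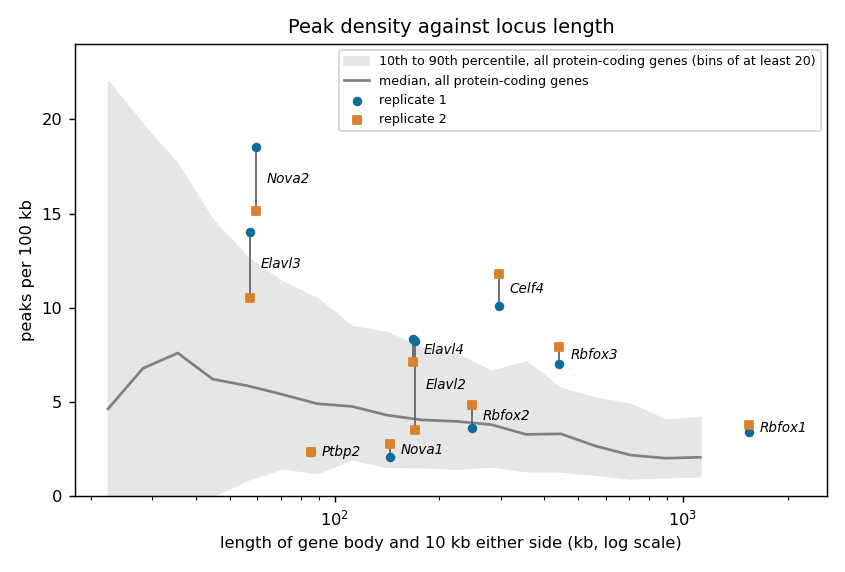
Peaks per 100 kb (y axis) against the length of each locus (x axis, kb, log scale) for the 10 genes, replicate 1 as circles and replicate 2 as squares joined by a line, over the median (grey line) and the 10th to 90th percentile (band) of all protein-coding genes in length bins of at least 20 genes. Celf4 and Rbfox3 stand above the band in both libraries (10.1 and 11.8, 7.02 and 7.92), as does Nova2 (18.5 and 15.1), while Nova1 and Ptbp2 lie under the median.

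The libraries agreed on these loci about as well as on the genome. The 10 loci, 3217 kb in all, held 175 peaks in replicate 1 and 179 in replicate 2, which merged into 221 regions. Of these, 121 (54.8%) were shared by the libraries, while 48 came from replicate 1 alone and 52 from replicate 2 alone, beside 53.6% of the 109538 regions of the genome called in both. Across the 121 regions the log2 ratio of the libraries had an SD of 0.32, against 0.39 over the genome, and none of them differed by more than 2-fold, as 1.75% did over the genome. Spearman's rho between the libraries was 0.862 over these regions and 0.908 over all shared regions, a description over regions that share their libraries and loci.

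**Figure D4:**
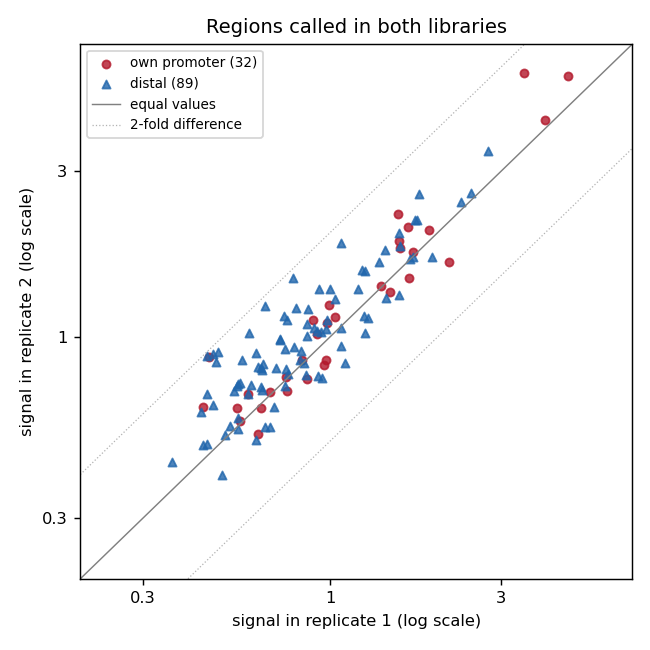
Signal in replicate 2 (y axis, log scale) against replicate 1 (x axis, log scale) for the regions of the 10 loci called in both libraries, 32 within 1 kb of the gene's own TSS (red circles) and 89 distal (blue triangles), with the line of equal values and dotted lines at a 2-fold difference. None of the points lies outside the dotted lines.

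By position, 165 of the 221 regions were distal and 55 lay at the genes' own TSS. Of the distal regions 143 were intronic, 5 exonic, 13 upstream and 4 downstream of the gene, and 89 (53.9%) were called in both libraries, beside 48.5% of all distal regions. Their median value was 0.854, against 0.750 over distal regions of the genome, while the 32 shared regions at own TSS had a median of 1.02 against 1.36 over promoter regions of the genome. Pooled over the genes, promoter regions thus had a median below, and distal regions a median above, that of the genome. Rbfox1, Celf4 and Rbfox3 supplied 35, 20 and 19 of the 89 shared distal regions, and Nova1 and Ptbp2 none. In 4 of the 10 genes, Rbfox1, Rbfox3, Elavl3 and Celf4, a distal region outranked every promoter region by mean value. At Elavl3 this held in replicate 2 (2.00 against 1.80) but not in replicate 1 (1.55 against 1.57). The share of all genes with such a region is not given here, so the count has no background.

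Footprints numbered 380 in replicate 1 and 386 in replicate 2 over the 10 loci, from 87 and 114 in Rbfox1 to 7 and 6 in Ptbp2. Most lay inside peaks, 88.9% and 93.8%, beside 89.2% and 91.7% over the genome. Of the footprints of replicate 1, 38.4% overlapped one of replicate 2, beside 43.6% over the genome. A footprint in each library was present in 28 of the 32 shared promoter regions and in 75 of the 89 shared distal regions, beside 85.2% and 84.3% of such regions of the genome. Nova1 was uneven, with 14 footprints in replicate 1 and 7 in replicate 2.

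Motif letters were counted on both strands in the 300 bp centred on each shared region. Where a region was narrower, this window took in flanking DNA. The count covered 30 promoter and 69 distal regions of the 9 genes other than Celf4. It was made in the same way over 19805 promoter and 36970 distal regions of the genome. A share near that of the genome is no property of the genes. In distal regions the E-box CAGATG, of the kind read by neuronal basic helix-loop-helix factors, occurred in 32 (46.4%, genome 31.5%) and the E-box CAGCTG in 26 (37.7%, genome 25.4%). The CTCF core occurred in 20 (29.0%, genome 29.1%), the AP-1 site TGANTCA in 10 (14.5%, genome 15.9%) and the NFI letters TTGGCA in 10 (14.5%, genome 23.0%). TGCATG, the DNA form of the RNA word that Rbfox proteins bind, was present in 14 (20.3%, genome 17.1%), all at Rbfox1 and Rbfox3. These loci supplied 35 and 19 of the 69 distal regions, so they weigh most in these shares.

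In promoter regions the GC box occurred in 17 of 30 (56.7%, genome 58.9%) and CCAAT in 11 (36.7%, genome 32.5%). The ETS letters CCGGAAG were in 1 (3.33%, genome 13.0%), at Rbfox3. The NRF1 site GCATGCGC, the cyclic AMP response element TGACGTCA, and the letters TTCAGCACC and GGACAGCGC from the site of the neuronal gene repressor REST were in none of the 30, and over the genome in 4.29%, 2.71%, 0.651% and 0.919% of promoter regions. Few matches lay wholly under footprints of both libraries. For the CTCF core these were 4 of the 69 distal regions (5.80%, genome 10.2%), 1 in Rbfox1 and 3 in Rbfox3, and 2 of the 30 promoter regions (6.67%, genome 4.51%), in Elavl2 and Elavl4. The GC box had 3 such distal regions (4.35%, genome 2.40%), in Nova2 and Rbfox3, and 2 promoter regions (6.67%, genome 19.5%), in Elavl2 and Rbfox2. These promoter regions, at chr4:91371961-91372200 and chr15:77306521-77306820, are not the ones whose sequences are printed.

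Other RNA-binding protein genes of the same families or processes were counted by the same rule. Of 24 such genes, 23 were open at a promoter in both libraries, and Mbnl3, a muscleblind paralogue, had a promoter peak in replicate 1 only, at 0.232. Their median promoter value was 2.69, and 15 of the 23 lay above the median of 2.34, beside 3 of the 10 genes. The 24 also include brain splicing regulators, so this does not set neuronal against other genes. The highest were Fxr2, a paralogue of the fragile X gene Fmr1, with 8.05 and 10.5 (9.28 ± 1.74, SD, n = 2), Ptbp1 with 4.80 and 6.74 (5.77 ± 1.38), Elavl1 with 4.61 and 5.81 (5.21 ± 0.850) and Celf3 with 3.16 and 4.98 (4.07 ± 1.29). The peak at Elavl1 also lies at a start of Ccl25, within the same 1 kb window.

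Paralogues of the same families differed in promoter value. Ptbp1, which represses neuronal exons in other cell types, exceeded Ptbp2 in both libraries (4.80 against 2.15, and 6.74 against 1.64), and the third paralogue, Ptbp3, was lower at 1.44 and 1.48. Elavl1, which encodes the ubiquitous HuR, was above Elavl3 and Elavl4 in both libraries but overlapped Elavl2 in value. Among the Celf genes, Celf3 was above Celf4 in both libraries (3.16 against 1.56, and 4.98 against 1.89), as were Celf5 at 2.09 and 3.25 and Celf6 at 2.36 and 3.03. Celf1, at 1.46 and 2.01, lay on either side of it, and Celf2, at 0.831 and 1.19, below it. Openness of a promoter is not a measure of RNA, which these libraries do not hold.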

How the data were processed

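DNase-seq libraries of 1 group, 2 replicates, were analysed. Per the deposited text files, every list was derived from the alignment of its own library on mm10, so peaks were called per library. The aligner, callers, tool versions and read depth, not given in the sources used here, could not be checked, and counting intervals are left out. Peak values are the authors' read-depth normalized signal. The deposited footprint lists carry a constant of 0.01, read here as the p-value threshold of the call, and the authors' table of the cut rate lists positions with a q-value (false discovery rate) of at most 0.05. Each library has 2 peak lists: the longer (85603 and 87847 peaks) was used, and the shorter (47874 and 50077) was an alternative.

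Peaks were joined to the GENCODE M21 annotation of GRCm38, the build named mm10, and none of the intervals passed a chromosome end. A peak counted where it overlapped a window by at least 1 bp, and libraries were merged by the same overlap. Per-gene values are the strongest promoter peak in each library, as mean and SD. The genes named were the 10 genes, their strongest promoter and distal regions, any TSS open in 1 library only, the 4 related genes with the highest values, each related gene without a promoter peak in both libraries, and relatives of the same families. Joined starts, genes of like length (0.5 to 2 times), the CCAAT motif and the comparison of paralogues were chosen after seeing values. Members and lists were chosen with earlier results of these data known. The overlap search was tested on simulated intervals. Python 3.11.15, pandas 2.3.3, numpy 2.4.6, scipy 1.17.1, pysam 0.24.0 and samtools 1.23.1 were used. Sequences are from the GRCm38 reference, without the annotated untranslated bases (56 at Elavl2 and 24 at Rbfox2), and Celf4 was left out of all sequence work. Some marker genes of the tissue check are not reported here.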

Additional observations from a re-analysis of the deposited data

How the results depend on the processing

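For 8 results 50 alternatives were tried. All 10 genes kept a promoter peak in both libraries on the shorter peak list, with promoters of 500 bp or 2.5 kb either side, by peak centre, with starts of protein-coding transcripts alone and in each library alone. With the annotated 5′ end as the only start, 7 did, without Rbfox3, Elavl2 and Ptbp2, and the median promoter value was 1.72 instead of 1.81. With promoters of 500 bp either side Rbfox3 kept a promoter peak, but not its strongest one, which lies 608 bp from the TSS. The share of all protein-coding genes under these alternatives is not given here, so these counts have no background. On the shorter list the mean number of peaks in the loci was 89.5 instead of 177, the median density 3.46 instead of 6.68 per 100 kb, and the share of regions called in both libraries 61.5% instead of 54.8%. With the gene body alone and with 50 kb either side, peaks were 156 and 213.5 and footprints 311 and 499. Footprints that overlapped one of the other library numbered 149.5 on average instead of 383. With 1 library left out, the median promoter value ranged from 1.80 to 1.85, the share of open TSS from 58.8% to 67.1%, peaks from 175 to 179, density from 5.99 to 7.63 and footprints from 380 to 386, and related genes with a promoter peak were 23 or 24. The share of shared regions needs both libraries and has no such value. No paired analysis was possible because there was 1 group. Depth is unknown, so that a missing weak peak cannot be told apart from low depth.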

Other observations

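Some Celf genes outside the 10 had uneven numbers of peaks between the libraries. Celf2 held 24 peaks in replicate 1 and 61 in replicate 2 over 990 kb, Celf5 held 31 and 15 over 43.5 kb, and Celf3 held 13 and 3 over 33.9 kb. Celf5, with 52.9 peaks per 100 kb on average, was denser than each of the 10 genes in both libraries. Fmr1, the fragile X gene, had a single peak in each library, at its promoter, with values of 2.70 and 4.23.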
